A study of Mus musculus with 4 samples.

Results

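The genes described here are 10 markers of astrocytes and of radial glia, the stem cell-like glia of the developing brain: Slc1a2, Slc1a3, Sparcl1, Aldoc, S100b, Gfap, Aqp4, Gja1, Fabp7 and Vim. They were chosen by name, through the Ensembl identifiers of their symbols, and all 10 were among the 55573 genes of the table. A total of 9 passed the filter on low counts that left 15472 genes for testing, and Aqp4 did not. Their transcripts were measured by RNA sequencing in SmoWT cells, which come from mouse medulloblastomas of the Sonic Hedgehog subtype and grow as neurospheres. The cells came from spontaneous tumours of C57BL/6 mice, and both groups carry the genotype Ptch1+/-, Trp53-/-. The control group was given DMSO and the treated group GDC0449 at 0.1 µM (vismodegib, which blocks Smoothened, the signal transducer of the Hedgehog pathway), each for 24 h and with 2 libraries. The labels do not say whether the cells are 1 clone, or whether the replicates were separate cultures. Each p-value rests on the spread among these 4 libraries alone, and that spread may be technical.

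Astrocytes clear glutamate and potassium from the space around synapses, couple to each other through gap junctions and store and release metabolic fuel. In the cerebellum the Bergmann glia, astrocytes that keep the shape of radial glia, guide granule neurons inward and surround Purkinje cell synapses. Medulloblastoma of the Sonic Hedgehog subtype resembles granule neuron progenitors, a neuronal lineage, so most of these genes are not the defining genes of the tumour cell. In bulk RNA, a change in the number of cells that express a gene and a change in its RNA per cell cannot be told apart.

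The libraries held 16329721 to 20790030 reads in genes. The treated libraries had a larger share of reads in no gene, 14.3% and 14.4% against 12.3% and 13.2%, and no batch was given in the labels. Gli1, the transcription factor that reports Hedgehog activity, was at 281 and 263 CPM (reads scaled by library size and TMM factor) in DMSO and at 38.8 and 32.7 CPM in GDC0449. Of 15472 genes tested with edgeR, 12.4% were called (adjusted p below 0.05 and more than 1.5-fold), with 8.62% higher and 3.80% lower in GDC0449.

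Among the astroglial markers, 4 of 9 tested rose with GDC0449 and 0 fell in edgeR. The risers were Slc1a2, Sparcl1, Aldoc and Vim, by 1.61-fold to 2.27-fold. Slc1a3 and Gja1 were not called, and neither were the scarce transcripts S100b, Gfap and Fabp7. The median log2 fold change of the 9 was 0.69, beside 0.01 over all genes tested. At an unadjusted p under 0.05, Gfap was higher and 1 gene, Gja1, was lower besides, and DESeq2 and limma-voom also called 0 lower. With the adjusted p alone and no fold threshold, 5 of 9 passed, beside 35.9% of all genes tested, and the one added was Gja1, which was lower. In 6 of 9 both treated libraries lay above both controls, beside 33.6% of all genes tested, and in 1, Gja1, both lay below, beside 32.2%. Summed over the 10 genes, the level was 454 and 447 CPM in the DMSO libraries and 712 and 698 CPM in the GDC0449 libraries. Vim made up more of that sum than any other member.

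**Figure D1:**
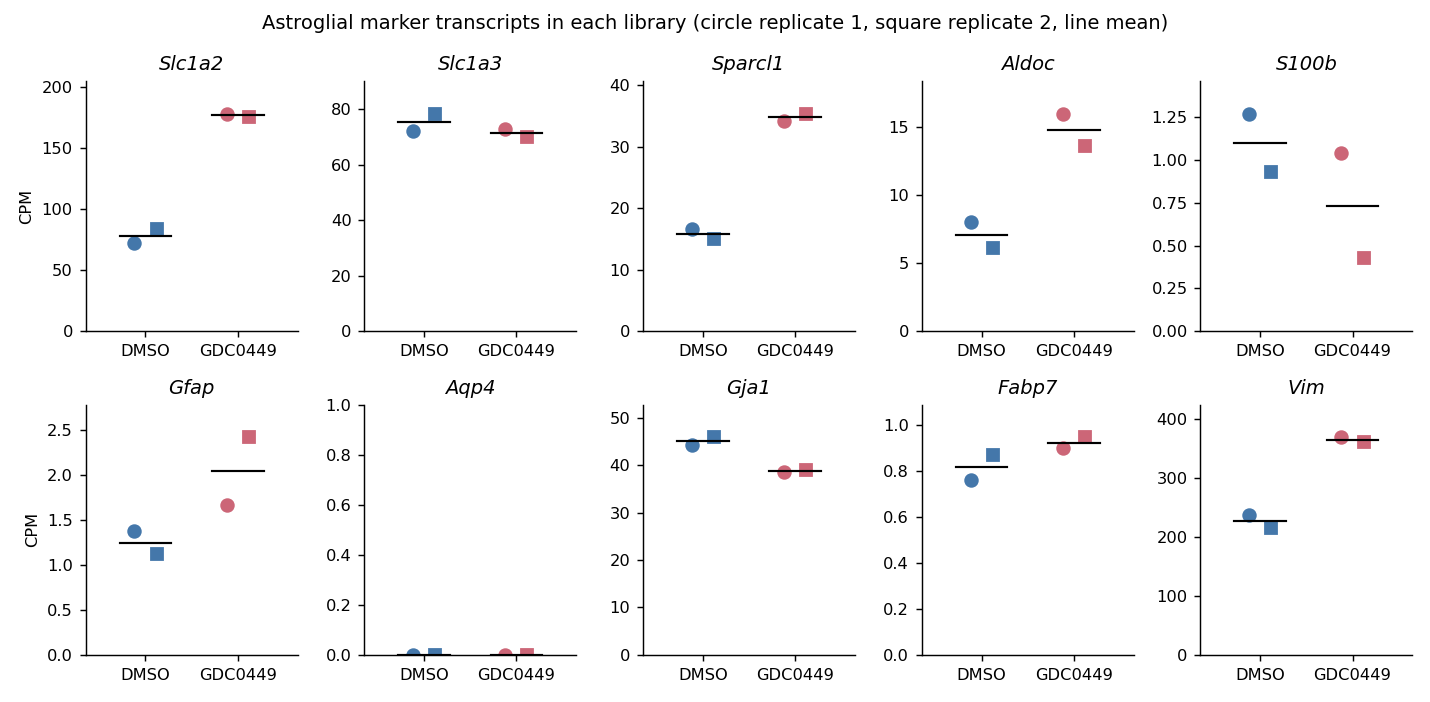
Level in CPM of each of the 10 members in the 4 libraries, with a circle for replicate 1, a square for replicate 2 and a line at the group mean (n = 2). Slc1a2, Sparcl1, Aldoc and Vim have both GDC0449 libraries well above both DMSO libraries, while Aqp4 had 0 reads in each library.

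Slc1a2 (ENSMUSG00000005089, chromosome 2, 102658659 to 102790784, mm10) encodes GLT-1, the main glutamate transporter of mature astrocytes. It had 1427 and 1345 reads in DMSO and 3762 and 3708 reads in GDC0449, or 72.5 and 83.4 CPM against 178 and 175 CPM. The treated libraries lay far above the controls and differed from each other by less than the controls did. Its mean rose 2.27-fold, from 78.0 ± 7.69 to 177 ± 1.96 CPM (SD, n = 2; 95% interval of the fold 2.06 to 2.50; edgeR adjusted p = 7.69e-20). An antisense gene model, Gm13872, covers 1.44% of its exonic bases.

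Sparcl1 (ENSMUSG00000029309, chromosome 5, 104079111 to 104113733) encodes hevin, a matrix protein that astrocytes secrete and that promotes synapse formation. Its 328 and 241 reads in DMSO and 722 and 748 reads in GDC0449 correspond to 16.7 and 14.9 CPM against 34.2 and 35.4 CPM. The groups did not overlap. The rise was 2.19-fold (95% interval 1.91 to 2.53; edgeR adjusted p = 2.36e-13), close to that of Slc1a2.

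Aldoc (ENSMUSG00000017390, chromosome 11, 78322968 to 78327781) encodes aldolase C, the glycolytic enzyme also known as zebrin II, which marks astrocytes and stripes of Purkinje cells. It was at 7.98 and 6.14 CPM in DMSO, from 157 and 99 reads, and at 15.97 and 13.6 CPM in GDC0449, from 337 and 288 reads. The replicates differed more than for Slc1a2, but both treated libraries stayed above both controls. Aldoc rose 2.08-fold (95% interval 1.70 to 2.53; edgeR adjusted p = 3.55e-08). Without DMSO replicate 2 its log2 fold change was 0.88 and the call was lost (adjusted p = 0.0578), the upper end of a range from 2.25e-14 over 13 alternatives.

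Vim (ENSMUSG00000026728, chromosome 2, 13573927 to 13582826) encodes vimentin, the intermediate filament protein of radial glia, immature astrocytes and many mesenchymal cells. It had the most reads of the members and was at 237 and 216 CPM in DMSO and 369 and 361 CPM in GDC0449. The 2 groups were far apart relative to the replicates. Its rise of 1.61-fold (95% interval 1.48 to 1.76; edgeR adjusted p = 3.32e-13) was the smallest of the 4 that were called, and its interval reached below the 1.5-fold threshold.

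**Figure D2:**
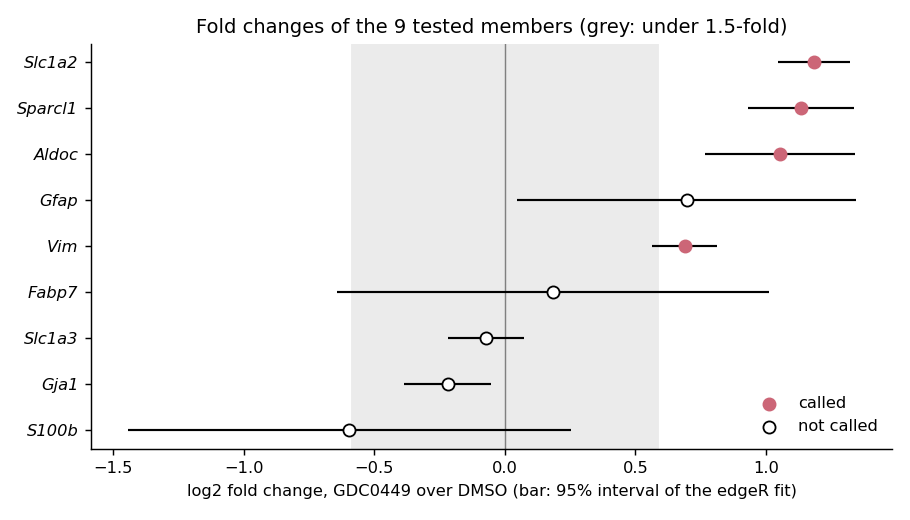
The log2 fold change of GDC0449 over DMSO for the 9 tested members, with the 95% interval of the edgeR fit as a bar, filled points for called genes and grey for changes under 1.5-fold. Slc1a2, Sparcl1 and Aldoc lie above 1 and Vim at 0.69, while the intervals of S100b, Gfap and Fabp7 are the widest.

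Proximal promoters are printed for the called members in RefSeq's table (GRCm38.p6), to let the letters upstream of the risers be read against those of Slc1a3 and Gja1, which were not called. Windows were read for 8 of the 10 members, with 2 start sites for Aldoc. Sparcl1 had no entry in that table, and Aqp4 was left out of the reading. Each window is the 250 bases before the start site, 5′ to 3′ on the gene's strand. Capitals mark exact matches, on either strand, to 6 short motifs: GACCACCCA (bound by GLI factors), TTCNNNGAA (STAT), TTGGCA (the core of an NFI site), ACAATGG (SOX), TGGGAA (RBPJ, the Notch effector) and CANNTG (the E-box of bHLH factors).
Slc1a2 (chr2:102706188-102706437, plus strand): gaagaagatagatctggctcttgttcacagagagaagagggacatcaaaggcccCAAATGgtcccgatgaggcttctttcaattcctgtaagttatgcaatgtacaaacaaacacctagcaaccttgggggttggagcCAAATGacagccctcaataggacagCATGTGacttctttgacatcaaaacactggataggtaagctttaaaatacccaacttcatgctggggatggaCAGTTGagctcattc
Vim (chr2:13574061-13574310, plus strand): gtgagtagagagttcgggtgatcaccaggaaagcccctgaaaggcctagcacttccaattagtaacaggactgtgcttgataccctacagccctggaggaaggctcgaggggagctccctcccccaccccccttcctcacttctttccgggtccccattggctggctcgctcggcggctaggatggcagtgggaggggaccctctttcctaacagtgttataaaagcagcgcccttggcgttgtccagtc
Aldoc, upstream start (chr11:78322823-78323072, plus strand): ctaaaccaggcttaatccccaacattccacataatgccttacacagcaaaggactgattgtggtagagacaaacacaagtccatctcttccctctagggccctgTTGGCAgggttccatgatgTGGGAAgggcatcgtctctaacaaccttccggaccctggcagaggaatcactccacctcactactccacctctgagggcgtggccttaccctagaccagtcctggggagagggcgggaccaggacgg
Aldoc, downstream start (chr11:78323948-78324197, plus strand): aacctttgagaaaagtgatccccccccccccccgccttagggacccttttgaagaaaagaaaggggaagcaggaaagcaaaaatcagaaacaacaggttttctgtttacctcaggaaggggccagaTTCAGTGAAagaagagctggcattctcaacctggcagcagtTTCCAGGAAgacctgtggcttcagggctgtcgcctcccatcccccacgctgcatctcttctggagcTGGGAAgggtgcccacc
Slc1a3 (chr15:8710808-8711057, minus strand): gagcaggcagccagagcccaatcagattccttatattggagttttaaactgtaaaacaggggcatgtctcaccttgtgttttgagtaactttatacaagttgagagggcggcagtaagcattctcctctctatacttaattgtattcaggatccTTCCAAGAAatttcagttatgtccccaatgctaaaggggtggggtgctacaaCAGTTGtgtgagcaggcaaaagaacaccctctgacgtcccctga
Gja1 (chr10:56377050-56377299, plus strand): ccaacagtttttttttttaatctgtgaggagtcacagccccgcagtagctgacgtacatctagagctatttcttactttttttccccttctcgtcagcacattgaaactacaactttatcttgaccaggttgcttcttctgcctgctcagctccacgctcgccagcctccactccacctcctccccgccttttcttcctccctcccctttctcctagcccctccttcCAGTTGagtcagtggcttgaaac

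None of the 9 windows of members held the GLI or the SOX motif. Of 32851 windows of all genes, 0.225% held the former and 3.02% the latter, so matches to either are rare. The Slc1a2 window held 4 E-boxes and no other motif, and 66.2% of all windows held at least 1 E-box. The Vim window held no match to any of the 6. The windows of Aldoc held an NFI core and an RBPJ match at the upstream start, and 2 STAT matches and an RBPJ match at the downstream start. Slc1a3 and Gja1 each held 1 E-box, and Slc1a3 also a STAT match 96 bases before its start. S100b, Gfap and Fabp7, also not called and not printed, each held an RBPJ match. The S100b window held an NFI core too, and those of S100b and Fabp7 held E-boxes, so none of these letters was particular to the risers. The STAT, NFI and RBPJ letters occur in 7.02%, 12.3% and 21.6% of all windows. A match is a run of letters and not evidence of binding. The annotated genes Slc1a2 and Vim begin at 102658659 and 13573927, upstream of the windows shown, so these windows lie inside the genes. For Slc1a2 the window is far inside, and its letters are those of an internal start site. Gfap also begins upstream of its window, and Aldoc and Fabp7 begin within a window that was read. Counts per gene do not separate start sites.

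Slc1a3 (ENSMUSG00000005360, chromosome 15, 8634124 to 8710764) encodes GLAST, the glutamate transporter of radial glia and of Bergmann glia. It was at 72.1 and 78.4 CPM in DMSO and 72.7 and 70.1 CPM in GDC0449, so the groups overlapped. Its fold of 0.950 had a 95% interval from 0.859 to 1.05 (edgeR adjusted p = 0.464), which lies within 1.5-fold in either direction. Reads of Slc1a2 per read of Slc1a3, a ratio that does not depend on scaling, were 1.01 and 1.06 in DMSO and 2.45 and 2.50 in GDC0449. With 2 libraries against 2 the exact two-sided permutation p of that ratio was 0.333, the smallest the design allows.

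Gja1 (ENSMUSG00000050953, chromosome 10, 56377330 to 56402513) encodes connexin 43, the main gap junction protein of astrocytes. It was lower in both treated libraries, at 44.3 and 45.8 CPM in DMSO against 38.5 and 38.9 CPM in GDC0449. The groups did not overlap, but the difference was small. Its fold was 0.859 (95% interval 0.766 to 0.964; edgeR adjusted p = 0.0329), which passed the adjusted p and missed the fold threshold.

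Gfap (ENSMUSG00000020932, chromosome 11, 102887336 to 102900912), the intermediate filament gene that defines mature and reactive astrocytes, was scarce. It had 27 and 18 reads in DMSO and 35 and 51 in GDC0449, or 1.37 and 1.12 CPM against 1.66 and 2.41 CPM. Both treated libraries were above both controls, and the fold of 1.62 had a 95% interval from 1.03 to 2.54. It was not called (edgeR adjusted p = 0.0876). Reads of Gfap per read of Vim were 0.00580 and 0.00518 in DMSO and 0.00450 and 0.00669 in GDC0449, so the groups overlapped in that ratio.

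S100b, a calcium-binding protein gene of astrocytes and Bergmann glia, and Fabp7, the fatty acid binding protein gene of radial glia, were scarcer still. S100b had 25 and 15 reads in DMSO and 22 and 9 in GDC0449, or 1.27 and 0.930 CPM against 1.04 and 0.426 CPM, and the groups overlapped. Fabp7 had 15 and 14 reads in DMSO and 19 and 20 in GDC0449, or 0.763 and 0.868 CPM against 0.900 and 0.947 CPM. For Fabp7 both treated libraries lay above both controls by less than the counting error. The 95% intervals of the folds were 0.367 to 1.19 for S100b and 0.641 to 2.02 for Fabp7 (edgeR adjusted p = 0.288 and 0.771). They do not exclude a 1.5-fold fall of S100b or a 1.5-fold change of Fabp7 in either direction.

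Aqp4, the water channel gene of astrocyte endfeet, had 0 reads in each library and is listed at 0 in the authors' FPKM. A floor of 3 reads per library leaves room for 0.144 to 0.184 CPM at most, depending on the library and before TMM scaling. Floors and intervals on reads cover counting error only. The astroglial markers were thus unevenly represented. Transcripts of Vim, Slc1a2, Slc1a3 and Gja1 were at 38.5 CPM or more in every library, whereas Gfap, S100b and Fabp7 were at no more than 2.41 CPM in any library and Aqp4 was not detected.

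Levels of different genes were compared per length, on the authors' FPKM (reads scaled by gene length and library size). In DMSO the order was Vim at 69.2 ± 4.21 FPKM, then Slc1a3 at 12.3 ± 0.596, Gja1 at 9.74 ± 0.398, Slc1a2 at 4.84 ± 0.0537, Sparcl1 at 3.77 ± 0.334 and Aldoc at 1.72 ± 0.314 FPKM (SD, n = 2). Fabp7, S100b and Gfap followed at 0.635 ± 0.0941, 0.462 ± 0.0929 and 0.337 ± 0.213 FPKM. The libraries of neighbours in that order did not overlap except for S100b and Gfap. In GDC0449 Slc1a2, at 11.8 ± 0.552 FPKM, had reached Slc1a3, at 11.8 ± 1.45 FPKM, and their libraries overlapped. Sparcl1 at 8.42 ± 0.148 FPKM overlapped Gja1 at 8.46 ± 0.137 FPKM. Vim stayed first at 113 ± 0.731 FPKM.

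**Figure D3:**
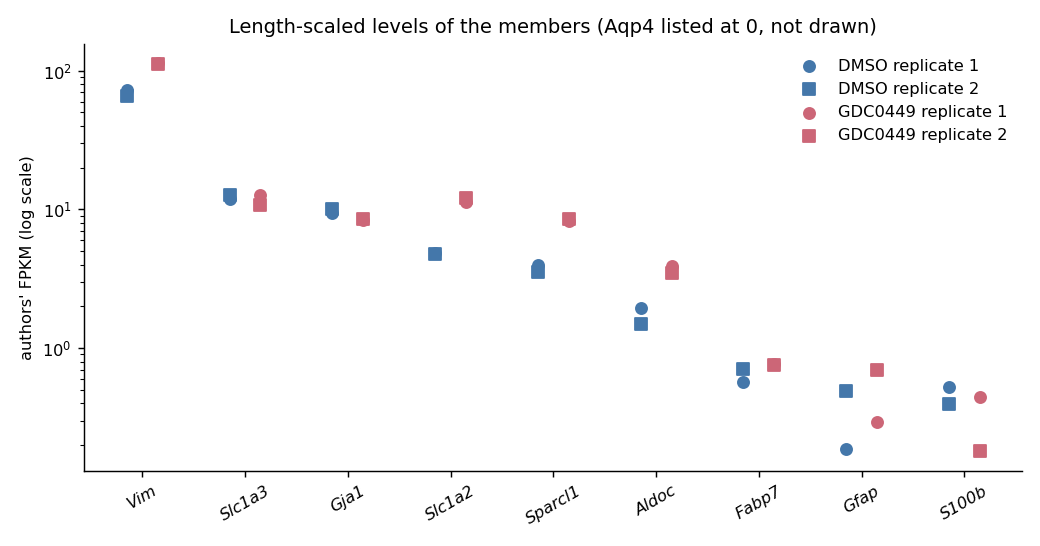
The authors' FPKM of the members in each library on a log scale, ordered by the mean over the 4 libraries, with Aqp4 left out because it is listed at 0. Slc1a2 and Sparcl1 move up to the level of Slc1a3 and Gja1 in GDC0449, and the Gfap replicates are far apart within both groups.

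The order among the middle genes depended on the measure. On CPM divided by exon length from GENCODE M21, Slc1a2 took place 2 and Gja1 place 5 over the 4 libraries, where FPKM put them in places 4 and 3. On that measure Sparcl1 was above Gja1 already in DMSO, at 5.68 and 5.09 against 4.32 and 4.47 CPM per kilobase. In GDC0449 Slc1a2 was above Slc1a3 there, at 13.6 and 13.4 against 8.52 and 8.21 CPM per kilobase. The 2 deposited measures also went apart for Gfap. The reads that corresponded to 1 FPKM ranged from 36.9 to 145 between libraries for Gfap, a 3.93-fold spread larger than in 98.6% of tested genes. For the other 8 members with reads that spread was 1.18-fold to 1.38-fold, beside a median of 1.35-fold over 15445 genes. Gfap levels in FPKM overlapped between the groups, whereas its CPM did not.

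Set beside the other genes of their protein families, the members differed in whether their relatives moved with them. In the SLC1 family of glutamate and neutral amino acid transporters, 6 of 7 genes were tested, with Slc1a2 called higher and 2 called lower. Slc1a4 and Slc1a5, which carry neutral amino acids such as serine and glutamine, fell 2.55-fold and 2.13-fold. Slc1a4 went from 173 and 160 CPM to 66.0 and 64.9 CPM, and Slc1a5 from 310 and 283 CPM to 137 and 142 CPM (edgeR adjusted p = 2.95e-22 and 6.78e-20). The summed level of the family was lower, at 632 and 608 CPM in DMSO and 458 and 455 CPM in GDC0449, although Slc1a2 rose.

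Among 9 tested intermediate filament genes, Vim alone was called. The median log2 fold change of the 9 was 0.26, and 7 of them were above 0. Nes, which encodes nestin, the partner filament of vimentin in neural stem cells, was at 339 and 342 CPM in DMSO and 239 and 234 CPM in GDC0449. Its fold of 0.695 passed the adjusted p (5.31e-10, edgeR) and missed the fold threshold. Reads of Vim per read of Nes went from 0.699 and 0.630 to 1.54 and 1.54, so the more abundant of the pair changed from Nes to Vim in read number (exact two-sided permutation p = 0.333, the smallest possible). The neuronal filament gene Ina and the lamin genes Lmna and Lmnb1 had log2 fold changes between -0.02 and 0.05.

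Aldoa, the broadly expressed aldolase, was called higher beside Aldoc, from 267 and 233 CPM to 470 and 417 CPM (1.77-fold; edgeR adjusted p = 4.77e-15). Reads of Aldoc per read of Aldoa were 0.0299 and 0.0263 in DMSO and 0.0340 and 0.0327 in GDC0449, so Aldoc gave far fewer reads than Aldoa in each library. In the SPARC family, 3 of 6 tested genes were called, all higher. Smoc1, a secreted matrix protein gene, rose 2.07-fold, from 34.7 and 32.2 CPM to 69.0 and 69.4 CPM, a size close to that of Sparcl1. Smoc2 also rose, at no more than 2.13 CPM in any library, but was not called once either DMSO library was left out. For Sparc itself the log2 fold change was 0.09.

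Among S100 genes, S100a16 rose 2.25-fold, from 7.52 and 7.50 CPM to 16.6 and 17.2 CPM, and S100a13 rose 2.11-fold from a lower level. The call of S100a13 needed both DMSO libraries and GDC0449 replicate 2. S100b, with a log2 fold change of -0.60, was the other tested gene of the 15. None of the 3 tested fatty acid and retinoid binding protein genes was called, by edgeR or by DESeq2 and limma-voom, although 2 of them, Fabp5 and Crabp2, were higher with an edgeR adjusted p of 1.49e-04 and 0.0238 and missed only the fold threshold. Per kilobase of exon Fabp5 was at 55.4 and 50.5 CPM in DMSO, far above Fabp7 at 0.610 and 0.695 CPM. Gjc1 was the only tested connexin besides Gja1 and had a log2 fold change of -0.14. All 4 tested aquaporin genes, Aqp4 not among them, rose. Aqp6 went from 46.7 and 47.0 CPM to 75.7 and 68.6 CPM, a call that needed GDC0449 replicate 1. Aqp1, Aqp5 and Aqp11 were at no more than 6.53 CPM in any library. Their calls needed both DMSO libraries, and that of Aqp5 also GDC0449 replicate 1.

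**Figure D4:**
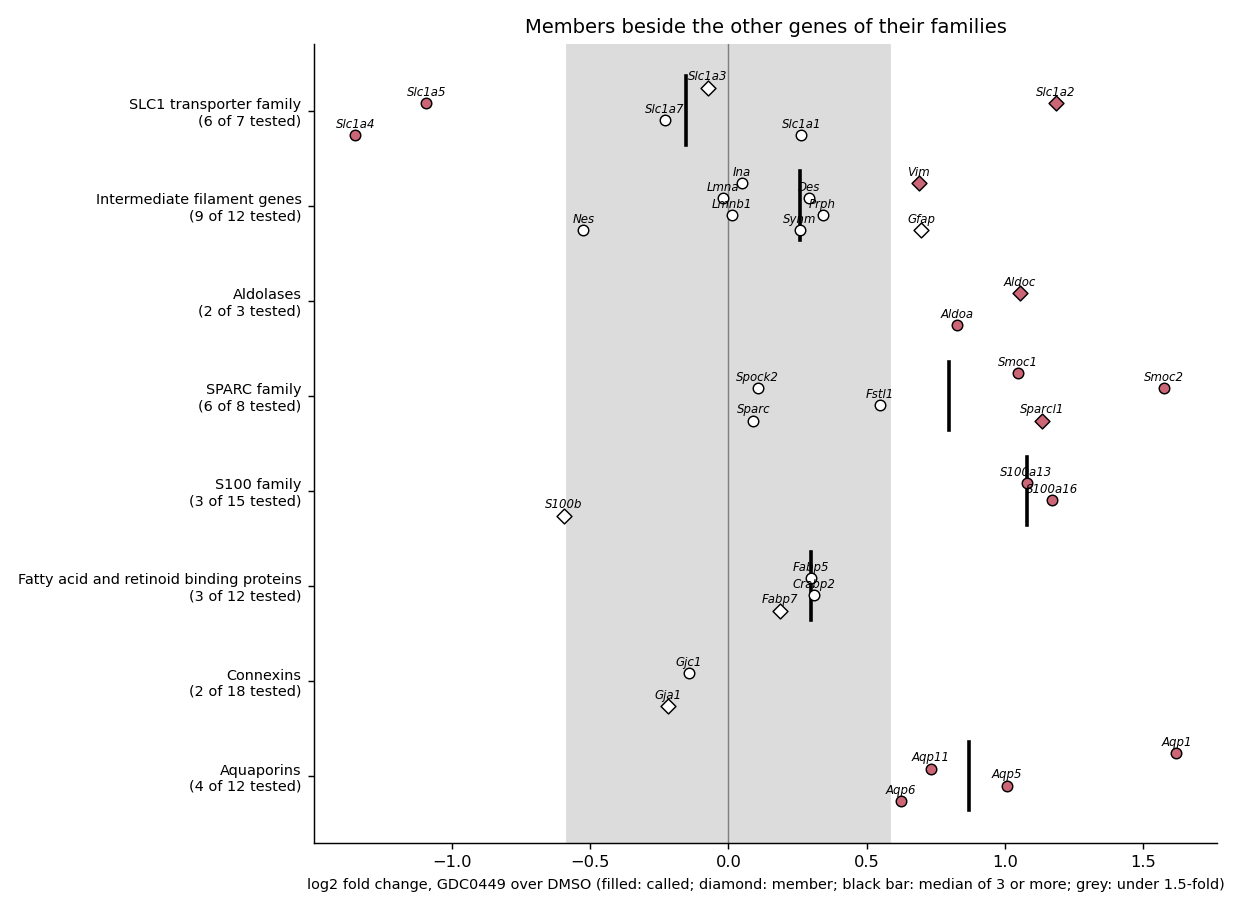
The log2 fold change of GDC0449 over DMSO of every tested gene in the families of the members, with members as diamonds, called genes filled, the median of families with 3 or more tested genes as a bar and grey for changes under 1.5-fold. Slc1a2 lies opposite Slc1a4 and Slc1a5, and Vim opposite Nes.

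Of 40 other astrocyte-enriched genes 26 were tested, and of these 5 rose and 2 fell. Their median log2 fold change was 0.23, beside 0.01 for all genes tested. Gldc, the glycine cleavage enzyme gene, rose 1.82-fold, from 94.7 and 92.3 CPM to 176 and 164 CPM. Ndrg2, Slc15a2 (a peptide transporter) and Ncan (the proteoglycan neurocan) rose 2.05-fold, 2.29-fold and 1.60-fold, and Ncan was not called on log2(FPKM + 1). Fgfr3 rose too, a call that needed both DMSO libraries and GDC0449 replicate 1. Megf10, an engulfment receptor gene, fell from 3.51 and 4.09 CPM to 1.23 and 1.33 CPM, a call not made on FPKM. Ntsr2 also fell, a call that needed the same 3 libraries as that of Fgfr3. Glul, the glutamine synthetase gene that works with the glutamate transporters in astrocytes, was at 1515 and 1462 CPM in DMSO and 1706 and 1703 CPM in GDC0449 and missed the fold threshold at 1.14-fold. Aldh1l1, Gjb6, Gpr37l1, Slc4a4, Slc39a12 and Gabrg1 had 0 reads in each library, among them the widely used astrocyte marker Aldh1l1.

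Genes of radial glia and neural stem cells outside the members were mostly lower. The members Vim, Slc1a3 and Fabp7, also radial glia genes, were not in that list. Their log2 fold changes were 0.69, -0.07 and 0.19. Of 14 listed, 9 were tested and 3 fell, with a median log2 fold change of -0.51, and all 9 passed the adjusted p alone, 2 of them higher. Sox9, a transcription factor that starts gliogenesis, fell 1.70-fold, from 50.1 and 50.9 CPM to 29.7 and 29.9 CPM (edgeR adjusted p = 1.73e-10). Notch1, the receptor gene that maintains neural stem cells, fell from 15.1 and 13.3 CPM to 9.003 and 8.05 CPM, a call that needed DMSO replicate 1 and was not made on FPKM. Tnc, a matrix protein gene, fell from 2.29 and 2.48 CPM to 0.853 and 1.66 CPM, a call that needed both DMSO libraries and GDC0449 replicate 1. For the difference in fold between this list and the members no test was made.

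Bergmann glia genes mostly had few or no reads. Of 10, 4 were tested and Gdf10, A2m, Gria1 and Ptprz1 had 0 reads. Ednrb, an endothelin receptor gene, fell 27.5-fold, from 4.88 and 7.32 CPM to 0.190 and 0.237 CPM (edgeR adjusted p = 1.19e-15). The second that fell was Tnc, given above. Timp4 rose, at no more than 1.70 CPM, and its call needed all 4 libraries. The list's summed level was 26.7 and 28.9 CPM in DMSO and 22.8 and 27.3 CPM in GDC0449.

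Regulators of astrocyte formation went both ways, with 5 of 17 tested higher and 2 lower and a median log2 fold change of 0.20. Id2, an inhibitor of bHLH factors, rose 2.57-fold, from 20.8 and 20.5 CPM to 52.7 and 53.6 CPM. Lifr, a receptor gene for the cytokines that drive astrocyte formation, rose from 31.3 and 33.3 CPM to 60.3 and 60.3 CPM. Sox8 rose 2.46-fold. Nfia, which encodes a factor of both glial and granule neuron development, rose 1.52-fold, a call that needed DMSO replicate 1 and was not made on FPKM. Cntfr rose and Id1 fell, and both calls needed both DMSO libraries. Sox9, given above, also fell. Of 19 reactive astrocyte genes 6 were tested, and Cp and Osmr fell. Cp, the ceruloplasmin gene, fell from 2.49 and 2.85 CPM to 0.521 and 0.521 CPM, a call not made on log2(FPKM + 1), and the call of Osmr needed all 4 libraries.

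**Figure D5:**
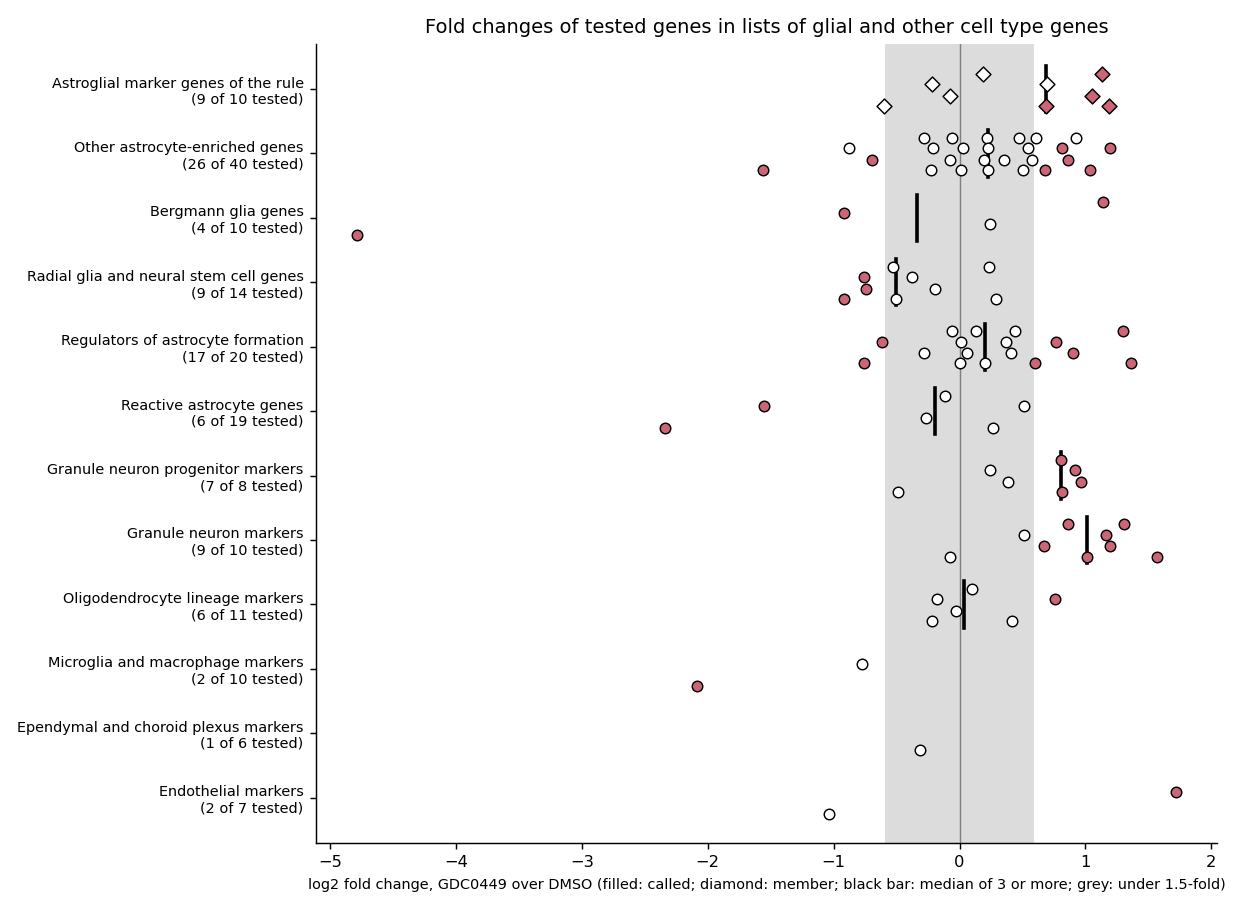
The log2 fold change of GDC0449 over DMSO of every tested gene in lists of glial and other cell type genes, with members as diamonds, called genes filled, the median of lists with 3 or more tested genes as a bar and grey for changes under 1.5-fold. Astroglial members and granule neuron markers have medians of 0.69 and 1.01, and radial glia genes outside the members of -0.51.

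Granule neuron markers, a neuronal list, moved with the 4 risers. Of 9 tested 7 rose, and the list's summed level went from 1430 and 1435 CPM to 2506 and 2455 CPM, with Gabra6, the marker of mature granule cells, at 0 reads. Cntn2 and Dcx rose 2.97-fold and 2.29-fold. The call of Stmn2, at no more than 1.23 CPM, needed all 4 libraries, and that of Tubb3 needed DMSO replicate 2. Of 7 tested granule neuron progenitor markers 4 rose, Meis1 by 1.95-fold and Atoh1 by 1.76-fold. All 7 passed the adjusted p alone, and among them Boc was lower (log2 fold change -0.49, edgeR adjusted p = 1.47e-08) and missed the fold threshold. The summed level of that list was 1106 and 1079 CPM in DMSO and 1271 and 1340 CPM in GDC0449. The part of granule neurons and their progenitors in the rise of the astroglial markers was not tested.

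Of the markers of other non-neuronal cells, those of microglia, ependymal and endothelial cells summed to no more than 3.16 CPM per list in any library, and those of the oligodendrocyte lineage to more. Oligodendrocyte lineage markers summed to 72.0 and 73.2 CPM in DMSO and 89.7 and 89.5 CPM in GDC0449, most of it Mbp, with Mag, Mobp and Olig1 at 0 reads and 1 of 6 tested, Cnp, called higher. That call needed both DMSO libraries and GDC0449 replicate 2. Microglia and macrophage markers summed to 1.98 and 3.16 CPM in DMSO and 1.42 and 1.33 CPM in GDC0449, with 1 of 2 tested, Tyrobp, called lower. The call of Tyrobp needed both DMSO libraries and GDC0449 replicate 1. Ependymal and endothelial markers summed to no more than 1.98 and 1.61 CPM in any library, with Tmem212, Folr1, Kdr and Cdh5 at 0 reads. The 1 ependymal gene tested, Rsph1, was not called, and 1 of 2 endothelial genes tested, Pecam1, rose at no more than 0.805 CPM, a call that needed all 4 libraries.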

How the data were processed

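The submitters' processing notes name Trim Galore for trimming, HISAT2 and mm10 for mapping, HTSeq 0.11.1 for counting and DESeq2 1.26.0. The table deposited by the authors holds raw counts and FPKM values per gene and library. For 546 genes it lists 0 counts but an FPKM of at least 1 in every library, so 0 reads alone does not show that a transcript was absent. Which annotation, strand setting and FPKM tool the authors used is not given in the sources used here. Of 55573 genes, 55480 had a symbol in GENCODE M21 (GRCm38), and 6 entries that name no gene (among them reads in no gene, 12.3% to 14.4% of the reads listed) were left out.

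Counts of all genes were fitted with edgeR 4.0.16 under R 4.3.3, using TMM scaling, the default filter on low counts, a quasi-likelihood test on group alone, and Benjamini-Hochberg adjustment over 15472 genes. The 95% intervals come from the fit's F statistic and degrees of freedom. The fit was tested on counts simulated with its own dispersion estimates, which cannot show whether the replicates are technical. Replicate libraries were distinct beyond counting noise (chi-square per gene 4.26 in DMSO and 3.44 in GDC0449). Alternatives used DESeq2 1.42.0, limma 3.58.1 (voom, and log2(FPKM + 1) or log2(FPKM + 0.1)), other scalings and filters, a replicate block and leaving out each library. All 10 members are named. Of each other list, the plan was to name up to 4 called genes with the smallest p, or 2 where none was called. Not all of these genes are named in the text. Any gene of a member's family may be named, and further list genes in the text were picked after their values were seen. The members and lists were chosen with earlier results of these data known.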

Additional observations from a re-analysis of the deposited data

How the results depend on the processing

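Of 123 results on the members under the alternatives, 121 kept their direction and their side of the thresholds and 0 reversed. The setting with no fold threshold reuses the main fit, so its results could not reverse. Aldoc fell short of the call without DMSO replicate 2, so that 3 to 4 members were called higher when 1 library was left out and 0 were called lower. With no fold threshold 1 member, Gja1, was called lower. The background moved more. Against 1333 genes higher and 588 lower of 15472, the filter at 5 CPM in 2 libraries gave 798 and 367 of 10953. On the same 15472 genes log2(FPKM + 1) gave 503 and 337, and no fold threshold gave 2778 and 2779. DESeq2 gave 777 higher with 27853 genes fitted, and log2(FPKM + 0.1) gave 804 higher of 15472. The number of genes tested differed between some of these settings and was the same in others, and its part in the counts was not tested. Leaving out 1 library gave 505 to 1130 higher and 347 to 581 lower, with 505 and 347 without DMSO replicate 2 and 572 and 357 without DMSO replicate 1. The causes were not tested. The replicate block gave 4 members higher and 0 lower, with 1392 and 608 genes overall. The replicate numbers are not shown to pair the libraries, since the deviations of same-numbered libraries correlated at 0.04 over genes. DESeq2 did not call Aqp5, Aqp11, Cnp, Fgfr3, Id1, Ntsr2, Osmr, Pecam1, S100a13, Smoc2, Stmn2, Timp4, Tnc or Tyrobp. The log2 fold change of S100b, with 9 to 25 reads per library, ran from -1.37 to -0.10 when 1 library was left out, and that of Gfap, with 18 to 51 reads, from 0.40 to 0.94. S100b, Gfap and Fabp7 were not tested under the 5 CPM filter.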
